A study of Mus musculus and Mus musculus
Oryx dammah with 30 samples.

Results

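Heat shock proteins and chaperones were followed in mouse embryos that had received nuclei of C2C12 cells, a mouse myoblast line. The 10 genes were chosen by name, though with earlier results of these data known: the stress-inducible cytosolic Hsp70 genes Hspa1a and Hspa1b, the constitutive Hspa8, the compartment-specific Hsp70 genes Hspa5 and Hspa9, the cytosolic Hsp90 genes Hsp90aa1 and Hsp90ab1, the mitochondrial chaperonin genes Hspd1 and Hspe1, and the small heat shock protein gene Hspb1. All 10 were found among the 53023 genes of the four-cell and replication tables and among the 55364 genes of the two-cell table.

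Chaperones bind unfolded or partly folded proteins and keep them from aggregating until they reach their native state. Hsp70 proteins bind short hydrophobic stretches in a cycle of ATP hydrolysis driven by DnaJ co-chaperones, Hsp90 proteins act later on near-native clients such as kinases and steroid receptors, and chaperonins enclose whole proteins in a chamber. Heat shock factors switch on many of these genes through heat shock elements in their promoters, and in the mouse Hspa1a and Hspa1b are known as some of the earliest genes transcribed from the embryonic genome, without any heat stress.

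In every experiment considered here, C2C12 cells of C3H origin were fused with embryos from C57BL/6 oocytes and DBA/2 sperm. Division of the nuclear transfer (NT) embryos was blocked with 0.1 µg/ml demecolcine, which disrupts microtubules. Culture with α-amanitin, an inhibitor of RNA polymerase II, left RNA that was present before or escaped the block, so the comparison of embryos cultured without and with α-amanitin asks which RNA was made during culture. In the four-cell experiment, transfer at 46 hours post insemination (hpi) was followed by culture for 24 hours without α-amanitin (3 libraries) or with it (3 libraries), each library a pool of 3 embryos. In the two-cell experiment, 6 libraries without and 6 with α-amanitin, each a pool of 5 embryos, came from recipients used at 21 hpi (early, before DNA replication) or at 30 hpi (late). The column names separated these 12 libraries into an NT series and an R series of 3 without and 3 with α-amanitin each, but did not tell which series was early and which was late, so the series are called by these letters. The replication experiment compared groups named D and DR (3 pools of 4 four-cell embryos each, without α-amanitin), and asked whether DNA replication matters. Per the paper, transfer was at 40 hpi, with DNA replication to follow, or at 46 hpi, without it, and culture lasted 24 hours after either. The groups therefore also differed in the time of transfer and harvest, which cannot be told apart from replication. The labels do not spell out the letters, so D and DR were not assigned to these times. Pools held both the recipient's own nuclei and the transferred nuclei, C2C12 is a single line, and total RNA per gene does not separate the genomes. Fewer cells of a type and less RNA per cell cannot be told apart in such pools, and p-values measure only the spread between these libraries.

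Depth, spike-in reads included, ran from 1136771 to 3101002 counted reads per library in the four-cell table, from 4712268 to 10503779 in the two-cell table and from 2603946 to 19181387 in the replication table, as recovered from the deposited FPKM (fragments per kilobase of gene, relative to library size). The 8 oocyte and embryo markers were abundant in every group, led by Dppa3 in all but 1: their summed FPKM was 8728 to 9917 without and 12199 to 16099 with α-amanitin at the four-cell stage. In the two-cell libraries it was 8468 to 12332 without and 6893 to 8060 with α-amanitin in the NT series. In the R series it was 7432 to 9103 without and only 1402 to 3275 with α-amanitin, where Oosp1 led. These 3 R series libraries with α-amanitin also stood apart in overall profile, with a mean correlation of 0.536 to 0.600 with libraries of the other two-cell groups, against 0.887 to 0.896 among themselves. The 10 myoblast markers, led by Lgals1, summed to 148 to 496 FPKM without and 1171 to 1745 with α-amanitin in the R series, and to 944 to 4431 and 2261 to 2493 in the NT series, with Myod1 at 0 in all R series libraries. The 8 cumulus cell markers never exceeded a sum of 32.2 FPKM, and Fshr and Amh were at 0 in both four-cell groups. RNA spike-ins took 6.54 to 11.3% of reads with and 2.38 to 6.26% without α-amanitin at the two-cell stage, so two-cell values were tested after scaling to 47 spike-ins found in every library and again as deposited. The four-cell table listed 0 spike-ins and was tested as deposited, so a difference in total RNA between its groups cannot be seen. Its calls are relative to library size, and its counts are not comparable with the scaled two-cell counts.

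Promoter sequences of the stress-inducible genes are shown because heat shock factors act through elements that can be read in them. RefSeq windows on GRCm38.p6, the build of the files (mm10), were matched for 6 of the 10 members, and windows for Hspa8, Hspa9, Hsp90aa1 and Hsp90ab1 were not used here. The 250 bases before the start sites of Hspa1a (chr17:34972157-34972406, minus strand), Hspa1b (chr17:34959239-34959488, minus strand) and Hspb1 (chr5:135887669-135887918, plus strand) read 5′ to 3′, with heat shock elements of the form GAANNTTC or TTCNNGAA in capitals, as follows.

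Hspa1a: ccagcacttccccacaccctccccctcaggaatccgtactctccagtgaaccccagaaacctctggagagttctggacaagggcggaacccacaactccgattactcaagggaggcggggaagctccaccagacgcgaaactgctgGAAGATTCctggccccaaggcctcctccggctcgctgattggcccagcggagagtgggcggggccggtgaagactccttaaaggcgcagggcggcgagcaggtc

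Hspa1b: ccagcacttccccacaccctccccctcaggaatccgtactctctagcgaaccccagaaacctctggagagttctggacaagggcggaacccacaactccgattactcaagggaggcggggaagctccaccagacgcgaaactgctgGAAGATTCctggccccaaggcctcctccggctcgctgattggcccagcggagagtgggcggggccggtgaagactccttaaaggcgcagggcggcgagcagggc

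Hspb1: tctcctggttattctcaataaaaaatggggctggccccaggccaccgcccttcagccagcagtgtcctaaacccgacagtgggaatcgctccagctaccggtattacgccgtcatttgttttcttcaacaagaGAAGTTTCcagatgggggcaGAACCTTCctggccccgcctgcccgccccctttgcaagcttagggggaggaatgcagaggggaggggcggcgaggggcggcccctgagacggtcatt

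Hspa1a and Hspa1b differed at 3 of the 250 bases (98.8% identical), and in both the single element began 104 bases before the start site. Hspb1 held elements 117 and 97 bases before its start. Of 32851 mouse promoter windows of this length, 12.8% held either form and 1.46% held 2 or more. Both forms are their own reverse complement, so the strand does not matter. Hspe1 and Hspd1 lie head to head on chromosome 1, and a stretch of 24 bases before the Hspe1 start (chr1:55088056-55088079, plus strand) held 3 overlapping elements, 89, 84 and 79 bases upstream.

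Hspe1: ccgTTCTAGAACCTTCCGGAAggc

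The Hspa5 window held no heat shock element of this form but 1 copy of the endoplasmic reticulum stress element, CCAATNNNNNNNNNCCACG, which 37 of the 32851 windows (0.113%) contain on either strand. It began 65 bases before the RefSeq start (chr2:34772022-34772046, plus strand), and CCAAT and CCACG are in capitals.

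Hspa5: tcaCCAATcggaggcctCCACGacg

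A match to these letters describes the sequence and is not evidence of binding.

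At the two-cell stage the stress-inducible pair was higher without α-amanitin in both series. Hspa1b (ENSMUSG00000090877, chr17:34956436-34959238, minus strand) and Hspa1a (ENSMUSG00000091971, chr17:34969190-34972156, minus strand) encode nearly the same protein, and 62.3% of the 50-base windows of the Hspa1b transcript also occur in Hspa1a, so reads may have been split between them. Exons of Hspa1a also overlap Gm20481 on the opposite strand. Hspa1b was at 2.44, 3.62 and 4.27 FPKM in the NT series without α-amanitin and at 0.170, 0 and 0 with it. In the R series it was at 3.90, 1.59 and 1.70 FPKM without α-amanitin and at 0 in all 3 libraries with it. All 6 libraries without α-amanitin were above all 6 with it, and the only reads with α-amanitin, an estimated 2.25, came from Am1. The difference in Hspa1b was 2.42 on the log2(FPKM + 1) scale after spike-in scaling (SE 0.252, limma with Benjamini-Hochberg adjustment, adjusted p = 7.29e-06), and 1.88 as deposited (adjusted p = 0.000123). Hspa1b passed the filter of 1 FPKM in 3 libraries only through libraries without α-amanitin, so its entry into this fit depended on the contrast tested. With no filter, limma gave adjusted p = 7.79e-05 after scaling and 0.000619 as deposited. Taking 3 reads per library as the floor, Hspa1b of the R series exceeded its level with α-amanitin at least 18.6-fold.

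Hspa1a was lower throughout. Its level was 0.296, 0.404 and 0.215 FPKM in the NT series without α-amanitin and 0.125, 0 and 0 with it. In the R series it was 0.956, 0.621 and 0.312 FPKM without and 0 in all 3 libraries with α-amanitin. The groups did not overlap, but no library reached the filter of 1 FPKM, so Hspa1a was not in the fit across genes. A two-sided exact permutation test of log2(FPKM + 1) over 6 against 6 libraries gave a difference of 0.51 and p = 0.00216, the smallest that 924 arrangements allow (0.00649 after adjustment over 3 such tests). Against the same floor of 3 reads per library, the R series difference was at least 5.16-fold. With the FPKM of both genes added, the pair differed by 2.60 (SE 0.261, limma, adjusted p = 7.05e-06), and by 2.02 as deposited (adjusted p = 7.07e-05). The sum, too, passed the filter only through libraries without α-amanitin. In a fit with a separate change for each series, that of Hspa1b was 2.34 in the NT series and 2.49 in the R series after scaling, a difference of -0.15 that did not pass (adjusted p = 0.779), and the difference as deposited was 0.35 (adjusted p = 0.507).

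**Figure D1:**
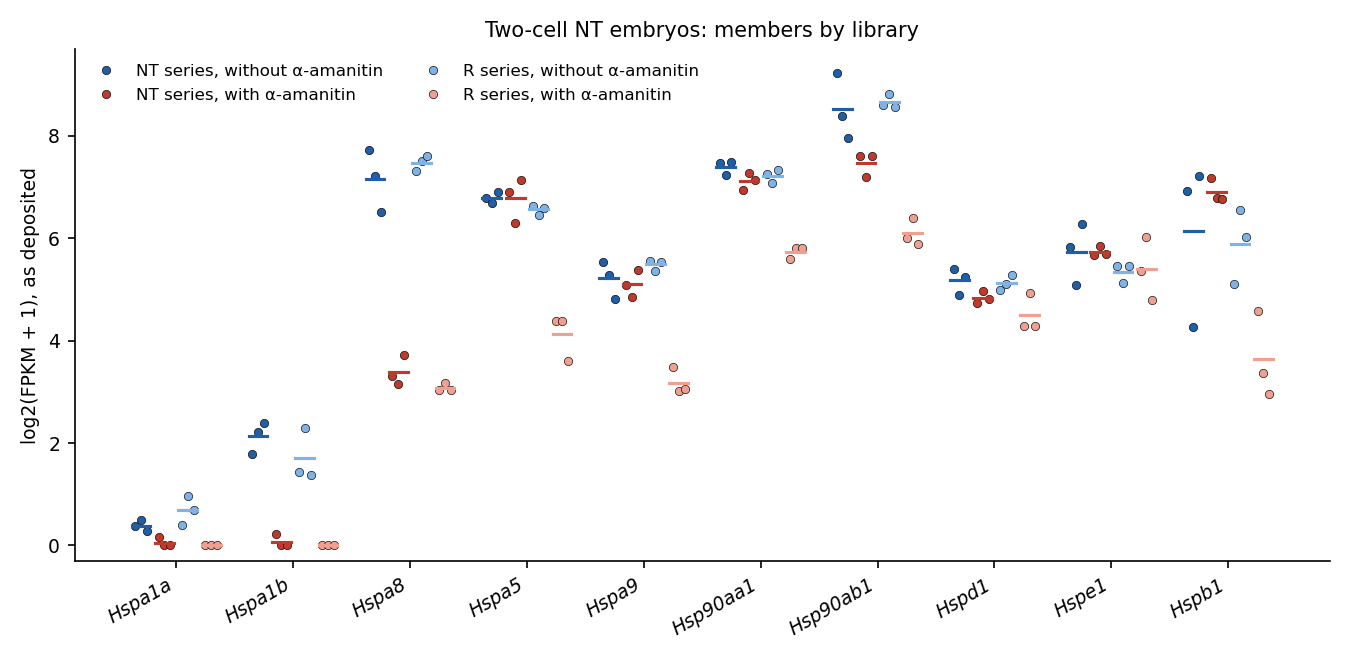
Level of each of the 10 members in the 12 two-cell libraries, as log2(FPKM + 1) of the deposited values, with 1 point per library, bars for group means, and the NT and R series shown separately without and with α-amanitin. Hspa8 lies between 90.4 and 209 FPKM without α-amanitin and between 7.21 and 12.2 FPKM with it, while Hspe1 overlaps between the groups.

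Hspa8, the constitutive cytosolic Hsp70 that folds new proteins and uncoats clathrin vesicles, showed the largest change on the log2(FPKM + 1) scale among the 9 members tested (ENSMUSG00000015656, chr9:40800984-40810087, plus strand; 3 small nucleolar RNA genes lie within it). It was at 209, 148 and 90.4 FPKM without and 8.97, 7.84 and 12.2 FPKM with α-amanitin in the NT series. The R series values were 179, 193 and 159 FPKM without and 7.21, 7.95 and 7.24 FPKM with α-amanitin. The lowest library without α-amanitin was far above the highest with it in both series. Mean FPKM was 19-fold higher without α-amanitin (163 ± 42.0 against 8.57 ± 1.89, SD, n = 6 each). The spike-in-scaled change was 5.38 (SE 0.502, limma, adjusted p = 4.04e-06), above those of 99.6% of genes tested, and the change as deposited was 4.07 (adjusted p = 6.1e-06). As a ratio its change was not ranked against that of Hspa1b, which has only a lower bound.

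Both Hsp90 genes were higher without α-amanitin after scaling, and the difference between them was not tested. Hsp90ab1, the constitutive form (ENSMUSG00000023944, chr17:45567775-45573271, minus strand), was at 598, 331 and 245 FPKM without and 193, 145 and 194 FPKM with α-amanitin in the NT series. In the R series it was at 447, 376 and 386 FPKM without and 63.2, 83.3 and 57.8 FPKM with α-amanitin. The groups did not overlap, and NT1 was the highest library. Its mean was 3.24-fold higher without α-amanitin, and the change was 3.21 after scaling (SE 0.579, limma, adjusted p = 0.000226) and 1.80 as deposited (adjusted p = 0.00495).

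Hsp90aa1, the stress-inducible form (ENSMUSG00000021270, chr12:110690605-110702728, minus strand), was at 175, 150 and 178 FPKM without and 121, 154 and 139 FPKM with α-amanitin in the NT series, where the groups overlapped. It was at 134, 159 and 152 FPKM without and 47.4, 54.7 and 54.8 FPKM with α-amanitin in the R series, where they did not. Over both series the change was 2.28 after scaling (SE 0.542, limma, adjusted p = 0.00142) but 0.88 as deposited, which did not pass (adjusted p = 0.0748). The ratio of Hsp90aa1 to Hsp90ab1 FPKM was 0.292 to 0.727 without and 0.631 to 1.06 with α-amanitin in the NT series, and 0.299 to 0.424 without and 0.657 to 0.948 with it in the R series.

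Hspa5, the Hsp70 of the endoplasmic reticulum also called BiP (ENSMUSG00000026864, chr2:34771970-34777547, plus strand), differed between the series. It was at 109, 102 and 118 FPKM without and 118, 78.0 and 139 FPKM with α-amanitin in the NT series. In the R series it was at 86.8, 95.8 and 97.8 FPKM without and 19.7, 19.95 and 11.2 FPKM with α-amanitin, a 5.51-fold difference in mean. Hspa9, the Hsp70 of the mitochondrial matrix (ENSMUSG00000024359, chr18:34937414-34954357, minus strand), showed the same split: 45.4, 38.1 and 27.3 FPKM without and 32.9, 28.0 and 40.7 FPKM with α-amanitin in the NT series. Its R series values were 40.2, 45.4 and 46.0 FPKM without and 10.2, 7.04 and 7.25 FPKM with α-amanitin, a 5.37-fold difference in mean. For both genes the 3 R series libraries with α-amanitin were below the other 9, and the groups of the NT series overlapped. Over both series Hspa5 changed by 2.59 after scaling (adjusted p = 0.00289) and by 1.23 as deposited, which did not pass (adjusted p = 0.0901). Hspa9 changed by 2.53 (adjusted p = 0.00134) and by 1.21 as deposited (adjusted p = 0.0435).

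The mitochondrial chaperonin genes had the smallest scaled changes of the 9 members tested over both series together, though not in either series alone. Hspd1, which encodes the Hsp60 chamber (ENSMUSG00000025980, chr1:55077835-55088243, minus strand), was at 40.9, 28.8 and 37.0 FPKM without and 25.6, 30.3 and 27.2 FPKM with α-amanitin in the NT series. It was at 33.2, 37.7 and 30.8 FPKM without and 18.4, 29.4 and 18.6 FPKM with α-amanitin in the R series, where the groups did not overlap. Hspe1, which encodes its Hsp10 lid (ENSMUSG00000073676, chr1:55088132-55091307, plus strand), was at 55.7, 33.0 and 76.4 FPKM without and 49.7, 56.2 and 50.8 FPKM with α-amanitin in the NT series. Its R series values were 34.0, 42.7 and 42.8 FPKM without and 40.2, 63.7 and 26.8 FPKM with α-amanitin, and the groups overlapped in both series. Scaled to spike-ins, Hspd1 changed by 1.84 (adjusted p = 0.00208) and Hspe1 by 1.35 (adjusted p = 0.0183), but as deposited the values were 0.48 (adjusted p = 0.197) and -0.03 (adjusted p = 0.957). The ends of both genes overlap on opposite strands and no strand-specific counting is stated, so some of their reads cannot be told apart.

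Hspb1, the small heat shock protein Hsp27 that holds unfolded proteins and stabilises actin (ENSMUSG00000004951, chr5:135887919-135889563, plus strand), varied widely. It was at 120, 18.1 and 148 FPKM without and 143, 109 and 108 FPKM with α-amanitin in the NT series, where NT2 was lower than any library with α-amanitin. In the R series it was at 93.2, 63.5 and 33.3 FPKM without and 22.7, 9.28 and 6.80 FPKM with α-amanitin, and the groups did not overlap. The scaled change over both series was 2.08 (SE 0.835, limma, adjusted p = 0.0326), and 0.74 as deposited (adjusted p = 0.44). Leaving out any of the libraries NT1, NT3, R1, R2, RAm1, RAm2 or RAm3 ended the call, with a change of 1.56 to 2.00 and adjusted p from 0.0577 to 0.0839. The fit over both series had no term for series, and with series as a term Hspb1 stayed called.

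In all, the 9 members tested were higher without α-amanitin after spike-in scaling, where 71.4% of the 17196 genes tested were higher too, and 7 of them passed as DEGs (adjusted p under 0.05 and at least 4-fold on this scale), as did 34.2% of genes. As deposited, 4 of 9 were higher (Hspa1b, Hspa8, Hspa9 and Hsp90ab1) against 38.9% of genes, and 1, Hspa8, was a DEG against 11.1%. By the deposited FPKM, 3 of the 9 did not overlap between the groups, as did 16.3% of genes, and Hspa1a, outside the fit, did not overlap either. Hspa1b entered these counts, and those of each series, only through its libraries without α-amanitin. The median change was 2.42 over the members and 1.49 over all genes after scaling, and 1.21 and 0.67 as deposited. A scaling by the median of ratios over genes centred all genes at 0.24 and left 3 members higher: Hspa1b, Hspa8 and Hsp90ab1.

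Taken alone, the NT series had 4 of 9 members higher after scaling (Hspa1b, Hspa8, Hsp90aa1 and Hsp90ab1; 31.5% of genes) and 2 as deposited (Hspa1b and Hspa8; 12.7% of genes), and 3 members did not overlap (26.8% of genes). The R series had 9 of 9 higher after scaling (80.5% of genes) and 7 as deposited (60.5% of genes), and 8 did not overlap, with Hspe1 the exception (61.5% of genes). Hspe1 also turned with the scaling there, from 1.88 with spike-ins (adjusted p = 0.00202) to -1.23 with the median of ratios (adjusted p = 0.00955). The test of the difference between the series called 7 of 9 members, all with the larger change in the R series, against 53.2% of genes called in either direction, and 8683 of those 9150 genes also had the larger change in the R series. Hspb1 differed by -4.13 (adjusted p = 0.00214), Hspa5 by -3.55 (adjusted p = 6.72e-05), Hspa9 by -3.27 (adjusted p = 0.000218) and Hsp90ab1 by -2.70 (adjusted p = 0.0024), as NT series minus R series. As deposited, 5 members were called, against 44.5% of genes: Hspa5, Hspa9, Hsp90aa1, Hsp90ab1 and Hspb1. The summed embryo markers were lower in the same R series libraries, and the part of these libraries in the members' values was not tested. Mean Hspa8 FPKM was 15.4-fold higher without α-amanitin in the NT series and 23.7-fold in the R series.

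**Figure D2:**
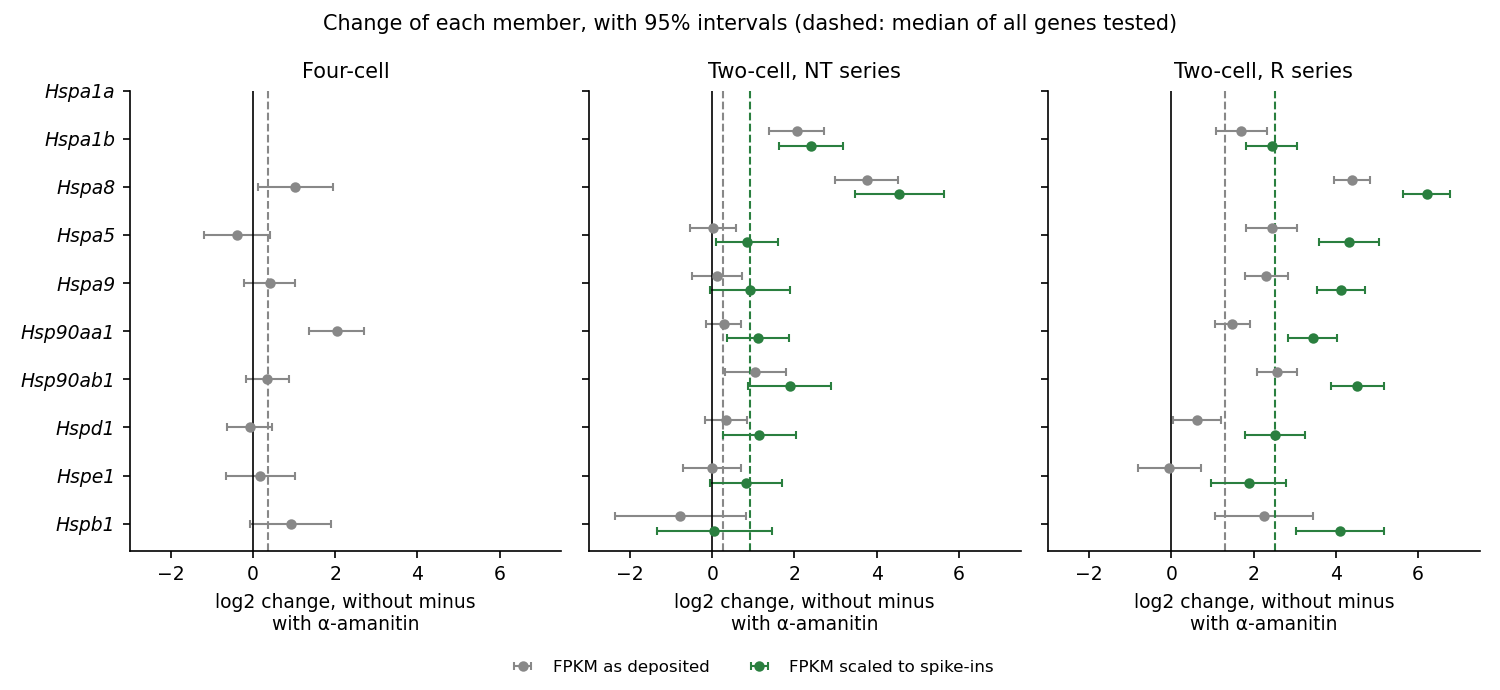
Change of each member without minus with α-amanitin on the log2(FPKM + 1) scale, with 95% intervals, for the four-cell experiment and for each two-cell series, as deposited (grey) and scaled to spike-ins (green), with dashed lines at the median of all genes tested. Hspa8 is farthest right in both two-cell series (4.55 and 6.21 after scaling), Hsp90aa1 is farthest right at the four-cell stage (2.04), and Hspa1a has no value because it did not pass the filter.

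By FPKM, a level per gene length, Hsp90ab1 was the most abundant member at the two-cell stage without α-amanitin (397 ± 119, n = 6). Hspa8 (163 ± 42.0) and Hsp90aa1 (158 ± 16.7) followed and differed by less than their spread. Hspa5 (102 ± 10.9) and Hspb1 (79.3 ± 50.2) came next, also within their spread, then Hspe1 (47.4 ± 16.4), Hspa9 (40.4 ± 7.20) and Hspd1 (34.7 ± 4.57), each within the spread of its neighbour. Hspa1b (2.92 ± 1.16) and Hspa1a (0.467 ± 0.277) were far below. With α-amanitin Hspa8 (8.57 ± 1.89) was below Hspd1 (24.9 ± 5.27) in each of the 6 libraries. It was below Hspa9 in the 3 NT series libraries, while in the R series their means were 7.47 ± 0.422 and 8.16 ± 1.76 and did not differ beyond their spread. The members together made up 0.117 to 0.203% of summed FPKM without and 0.0789 to 0.0906% with α-amanitin in the NT series, and 0.146 to 0.157% and 0.0226 to 0.0297% in the R series.

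At the four-cell stage, tested as deposited only, Hsp90aa1 was the only member called. It was at 337, 407 and 724 FPKM without α-amanitin and at 113, 119 and 105 FPKM with it. Every library without α-amanitin was above every library with it, and those with it were tightly grouped. The mean was 4.36-fold higher without α-amanitin (489 ± 206 against 112 ± 6.85, SD, n = 3 each), and the change was 2.04 (SE 0.294, 95% interval 1.37 to 2.70, limma, adjusted p = 0.00747). The ratio of Hsp90aa1 to Hsp90ab1 was 0.295 to 0.487 without and 0.0951 to 0.144 with α-amanitin, so it was higher without α-amanitin here and lower without it in the two-cell R series.

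Hspa8 was at 399, 414 and 561 FPKM without and 312, 315 and 110 FPKM with α-amanitin at the four-cell stage. The groups did not overlap, but the library with the lowest value stood far from the other 2, and the change of 1.03 (SE 0.399) did not pass (limma, adjusted p = 0.128). Hsp90ab1 was again the most abundant member, at 1142, 1135 and 1487 FPKM without and 1185, 1086 and 731 FPKM with α-amanitin. These overlapped, and the change was 0.34 (adjusted p = 0.361).

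Hspb1 was at 14.05, 30.7 and 42.6 FPKM without and 10.9, 12.8 and 17.7 FPKM with α-amanitin, with overlapping groups (change 0.92, SE 0.435, adjusted p = 0.201). Hspa5 was at 83.2, 48.8 and 36.1 FPKM without and 90.2, 68.9 and 53.9 FPKM with α-amanitin, and its change was -0.39 (adjusted p = 0.508). Neither difference passed. Hspa9 was at 76.9 to 85.6 FPKM without and 44.3 to 77.9 FPKM with α-amanitin, Hspd1 at 50.3 to 60.9 and 56.2 to 63.6 FPKM, and Hspe1 at 70.8 to 136 and 55.5 to 117 FPKM. These 3 mitochondrial chaperones had changes of 0.40, -0.08 and 0.18, and none passed (adjusted p = 0.368, 0.85 and 0.781).

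Of the stress-inducible pair at the four-cell stage, only Hspa1b in 2 libraries without α-amanitin had more than 3 reads. Hspa1b had 28, 1 and 18 reads without α-amanitin (4.38, 0.195 and 2.97 FPKM) and 0, 1 and 3 reads with it (0, 0.314 and 0.674 FPKM). The library with 1 read overlapped the group with α-amanitin, and an exact two-sided permutation test gave p = 0.3 (0.45 after adjustment over 3 tests), where 3 against 3 libraries cannot go below 0.1. Hspa1a had 3, 0 and 0 reads without and 1, 1 and 0 reads with α-amanitin, so a difference was not detectable at these counts (exact permutation p = 1). All four-cell values were whole reads, unlike those of the other experiments. Whether reads shared by the pair were counted alike in each was not tested. Neither gene passed the filter.

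**Figure D3:**
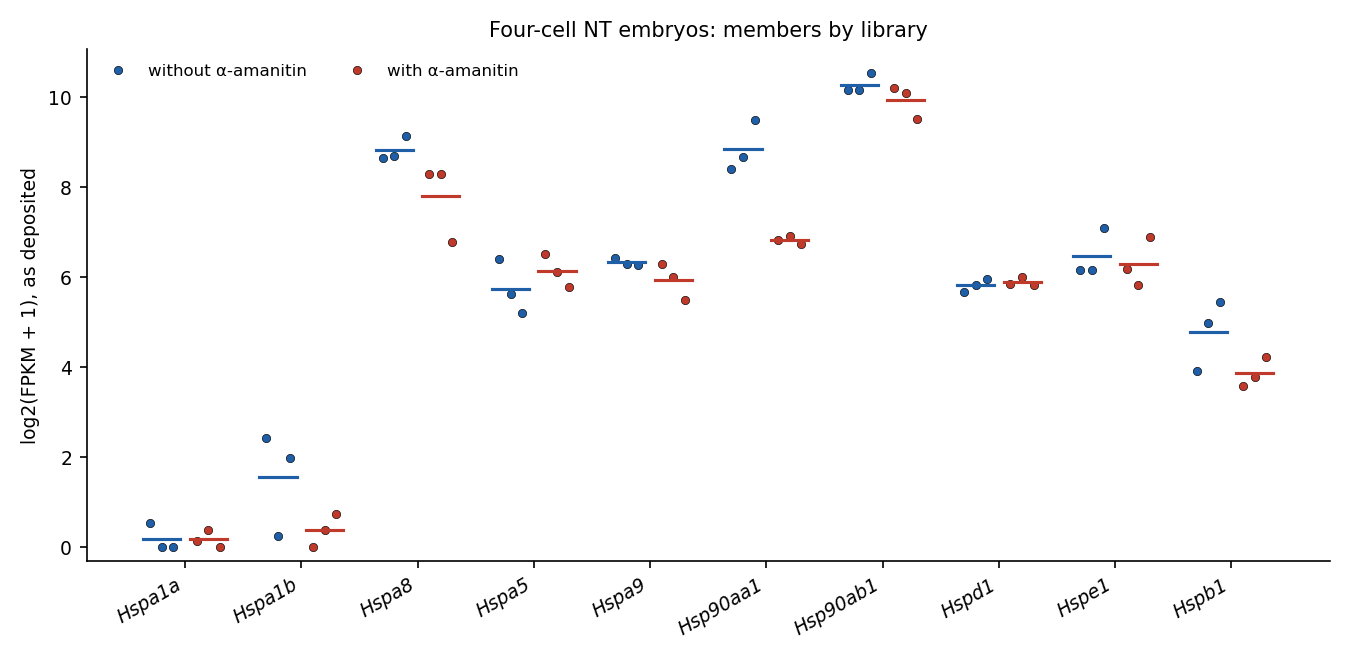
Level of each of the 10 members in the 6 four-cell libraries, as log2(FPKM + 1) of the deposited values, with 1 point per library and bars for the means of 3 libraries without (blue) and 3 with (red) α-amanitin. Hsp90aa1 is split cleanly, at 337 to 724 FPKM without and 105 to 119 FPKM with α-amanitin, while most other members overlap.

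Of the 8 members tested at the four-cell stage, 1 was higher without α-amanitin, as were 11.1% of the 9884 genes tested, and it was also a DEG, as were 6.2% of genes. None was lower, as 1.13% of genes were, and 2 (Hsp90aa1 and Hspa8) did not overlap with the group without α-amanitin higher, as did 27.6% of genes. The median change was 0.37 over both the members and all genes. Median-of-ratios scaling, which moved the median of all genes to 0.13, gave Hsp90aa1 a change of 1.72 (adjusted p = 0.0155), under 4-fold. The members took 0.465 to 0.661% of summed FPKM without and 0.209 to 0.378% with α-amanitin, and the summed myoblast markers were 213 to 709 FPKM without and 183 to 2213 FPKM with it.

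In the replication experiment, none of the 10 members differed between DR and D, and 0% of the 14570 genes tested did, both after scaling to 19 spike-ins and as deposited (0%). At an unadjusted p under 0.05, limma picked 0 members after scaling, against 0.604% of genes, and 1 as deposited, against 6.16% of genes. That member was Hsp90ab1, at 1352, 984 and 1026 FPKM in DR and 817, 742 and 657 FPKM in D. All DR libraries were above all D libraries, as for 8.21% of genes, with a 1.52-fold difference in mean and a change of 0.59 (SE 0.193, adjusted p = 0.788). After spike-in scaling, changes of the members ran from -2.06 to -1.06 with SE from 1.30 to 2.41, beside a median of -1.41 over all genes. Spike-in factors spread from 0.0945 to 5.65 between these 6 libraries, so these intervals were wide.

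Both genes of the stress-inducible pair were detected in all 6 libraries of the replication experiment. Hspa1b was at 5.48, 2.01 and 1.5 FPKM in DR and 6.74, 2.14 and 8.57 FPKM in D. Hspa1a was at 2.11, 0.700 and 0.593 FPKM in DR and 2.55, 0.288 and 1.94 FPKM in D. The groups overlapped for both, and the pair summed gave -0.68 as deposited (SE 0.584, limma, adjusted p = 0.837). Hspa8 was at 492, 452 and 350 FPKM in DR and 391, 341 and 431 FPKM in D. Hsp90aa1 was at 213, 361 and 228 FPKM in DR and 289, 184 and 486 FPKM in D, and both genes overlapped between the groups.

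The remaining members overlapped as well. Hspb1 reached 130 FPKM in 1 DR library and 82.3 FPKM in 1 D library, against 27.2 to 35.1 FPKM in the other 4. Hspa5 ran from 42.2 to 56.9 FPKM in DR and from 20.4 to 101 FPKM in D, and Hspa9 from 63.3 to 95.7 and from 51.7 to 76.7 FPKM. Hspd1 was at 51.1 to 98.4 FPKM in DR and 46.3 to 65.5 FPKM in D, and Hspe1 at 59.6 to 107 and 62.6 to 77.4 FPKM.

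**Figure D4:**
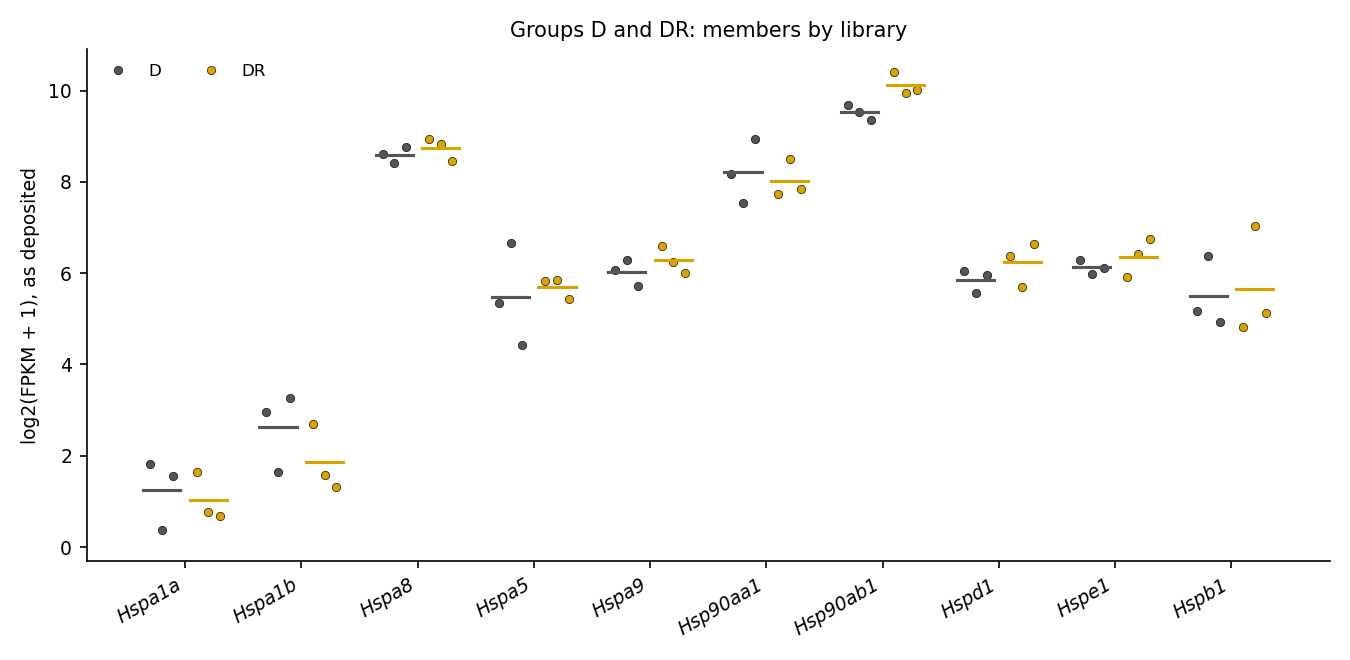
Level of each of the 10 members in the 3 D and 3 DR libraries, as log2(FPKM + 1) of the deposited values, with 1 point per library and bars for group means. The groups overlap for every member except Hsp90ab1, at 984 to 1352 FPKM in DR and 657 to 817 FPKM in D.

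A wider list of 104 other chaperone, co-chaperone and protein folding genes was read in the same fits. At the two-cell stage 91 were tested, and 72 were higher and 0 lower without α-amanitin after spike-in scaling, with a median change of 1.96 against 1.49 over all genes, of which 71.4% were higher and 1.63% lower. As deposited, 39 were higher and 2 lower (38.9% and 8.51% of all genes), and with the median of ratios 26 were higher and 14 lower (21.9% and 14.2%). All 8 subunits of CCT, the cytosolic chaperonin that folds actin and tubulin, and all 6 subunits of prefoldin, which hands substrates to it, were higher after scaling, but as deposited 4 and 2 were. With the median of ratios, 2 and 1 were higher and 0 lower. Of the DnaJ co-chaperones, 19 of 22 were higher (10 as deposited, with 1 lower), and of the other Hsp70 and Hsp90 co-chaperones 17 of 20 (12 as deposited, with 1 lower). With the median of ratios, 6 DnaJ genes were higher and 3 lower, and 9 of the other co-chaperones were higher and 2 lower. The endoplasmic reticulum genes had 8 of 15 higher (4 as deposited), but with the median of ratios 3 were higher and 6 lower, with a median change of -0.56 against 0.24 over all genes. These counts are to be read beside the 71.4% of all genes that were higher after scaling and the 38.9% as deposited. The endoplasmic reticulum count was below both shares. So were those of the other Hsp90 genes (1 of 2, and 0 as deposited), the other small heat shock protein genes (2 of 4, and 1 as deposited) and the heat shock factors (1 of 2, and 0 as deposited). The count of the other Hsp70 and Hsp110 genes (4 of 6, and 3 as deposited) was below the former share, and the prefoldin count was below the latter.

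The largest changes over both series together, each with a higher value in the R series than in the NT series, were those of Dnajb9, an endoplasmic reticulum partner of Hspa5 (4.72, adjusted p = 0.000538), Stip1, which passes clients from Hsp70 to Hsp90 (4.30, adjusted p = 0.000387), and the CCT subunit gene Cct4 (4.20, adjusted p = 0.000114). Grpel1, the nucleotide exchange factor of mitochondrial Hsp70 (3.93), Sugt1, a co-chaperone of Hsp90 (3.89), and Dnaja1 (3.88), Dnajc15 (3.87) and Dnajb14 (3.86) of the DnaJ family followed. Clpp (3.80) and Clpx (3.75), which form a mitochondrial protease, completed the 10. The change in the R series was 7.61 for Dnajb9, 6.67 for Stip1, 6.87 for Clpp and 6.18 for Clpx, and in the NT series it was 1.80 (adjusted p = 0.00796), 1.91 (adjusted p = 0.0201), 0.70 (adjusted p = 0.352) and 1.29 (adjusted p = 0.0689). Clpp was at 75.9 ± 40.5 FPKM without and 73.3 ± 13.7 FPKM with α-amanitin in the NT series (SD, n = 3 each), where 0 of the 6 mitochondrial genes tested were called. Stip1 was at 230 ± 69.2 FPKM without and 52.4 ± 50 FPKM with α-amanitin (SD, n = 6 each), and Cct4 at 87.3 ± 23.1 and 14.9 ± 13.3 FPKM. In the NT series alone 25 of 89 were higher, and in the R series 78 of 84, after scaling, beside 31.5% and 80.5% of all genes. As deposited, 13 were higher and 3 lower in the NT series, and 57 were higher and 6 lower in the R series, beside 12.7% and 60.5% of all genes higher and 4.18% and 16.4% lower.

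At the four-cell stage 83 of the 104 were tested, and 5 were higher and 1 lower without α-amanitin, beside 11.1% and 1.13% of all genes, with a median change of 0.21 against 0.37 over all genes. The co-chaperone genes Bag5 (2.94, adjusted p = 0.0139) and Bag3 (1.92, adjusted p = 0.0238), which act on Hsp70, were higher. Bag5 was at 31.5 ± 3.21 FPKM without and 3.92 ± 2.75 FPKM with α-amanitin (SD, n = 3 each). Also higher were Dnajb9 (1.95, adjusted p = 0.0498), Hsph1, an Hsp110 exchange factor of Hsp70 (1.77, adjusted p = 0.0459), and Xbp1, a transcription factor of the unfolded protein response (1.61, adjusted p = 0.0383). Bag3 and Xbp1 averaged 0.168 and 0.361 FPKM with α-amanitin, under the filter of 1 FPKM, so their libraries without it brought them into the fit. Calr, a lectin chaperone of the endoplasmic reticulum, was lower relative to library size, at 30.8 ± 2.51 against 63.2 ± 4.26 FPKM (-1.01, adjusted p = 0.0327). With the median of ratios, 2 were higher and 4 lower, beside 7.69% and 2.26% of all genes, and Dnajb9 (1.64, adjusted p = 0.0794), Hsph1 (1.53, adjusted p = 0.0716) and Xbp1 (1.47, adjusted p = 0.0602) did not pass. In the replication experiment 89 were tested and 0 were called by limma under any of the 3 scalings.

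**Figure D5:**
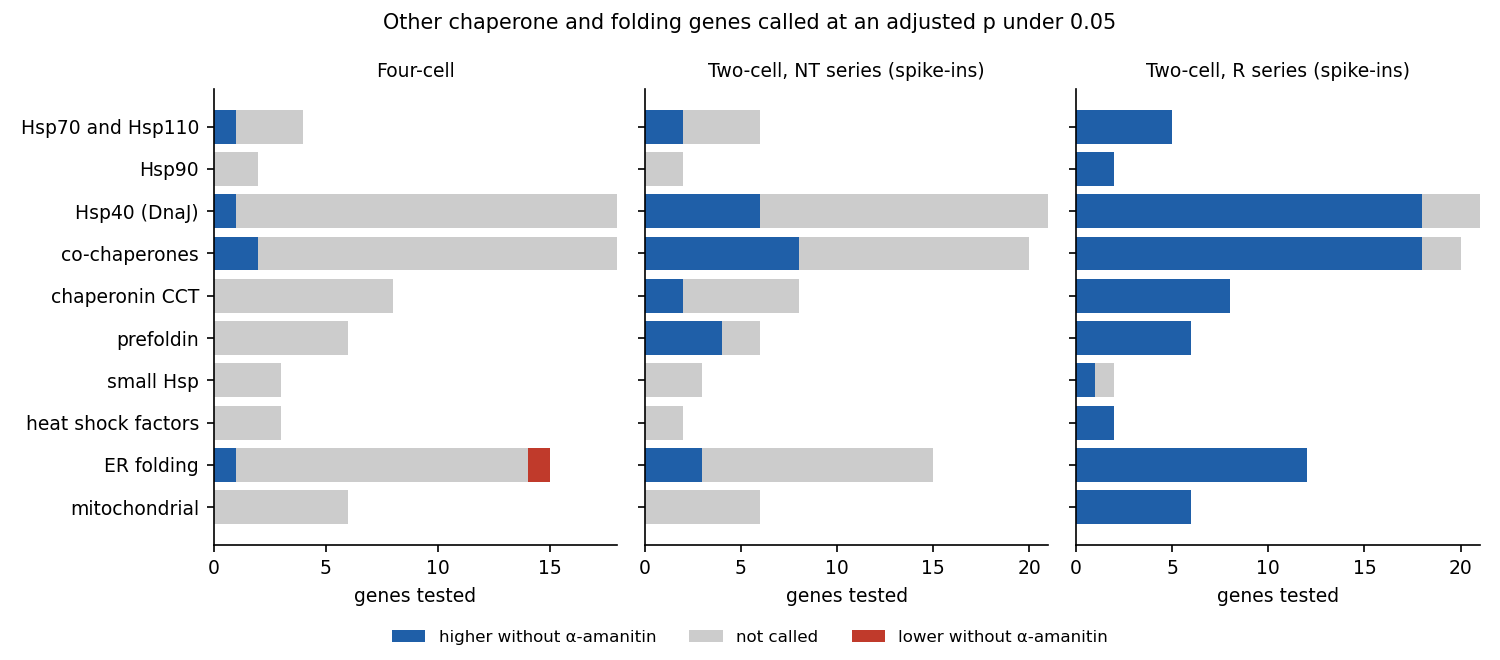
Number of genes of each wider chaperone and folding list called higher or lower without α-amanitin, or not called, at an adjusted p under 0.05, for the four-cell experiment as deposited and for each two-cell series scaled to spike-ins. Over all lists 5 of 83 genes were higher at the four-cell stage, 25 of 89 in the NT series and 78 of 84 in the R series, beside 11.1%, 31.5% and 80.5% of all genes.

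Over the 12 two-cell libraries, the genes whose log2(FPKM + 1) followed Hspa1b most closely among 17187 compared were Gm45353 (Pearson's r = 0.983), Cdc42ep1 (0.978), Apol10b (0.977), Cdc42ep5 (0.976) and Gm48526 (0.9754). For Hspa1a they were 4921528I07Rik and Gm29825 (both 0.990), and Gm50192, Gm50190 and Gm23620 (each 0.981). These correlations are descriptions over libraries that share the contrast between culture without and with α-amanitin, and Gm45353, Apol10b and Gm48526 were at 0 in every library with it.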

How the data were processed

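Pools of embryos were lysed, ERCC spike-in RNA was added, and cDNA was amplified and sequenced. Per the labels and the submitters' processing notes, reads were trimmed (Trimmomatic, Trim Galore, cutadapt), aligned to mm10 with STAR and counted with featureCounts, with versions not given in the sources used here, and the authors deposited FPKM per gene. In the four-cell table all values were whole multiples of 1 read (tolerance 0.01 reads), which gave the depth; in those of the two-cell and replication experiments 40.3 to 50.5% were, so recovered reads there are estimates. Columns of the replication table that match no sample (4) were not used.

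Columns were mapped to groups by name. FPKM was scaled by the median of ratios over spike-ins found in every library, except in the four-cell table. limma 3.58.1 (R 4.3.3) was fitted to log2(FPKM + 1), its prior variance following expression level, for every gene that reached 1 FPKM in 3 or more libraries, with Benjamini-Hochberg adjustment over all genes tested. A change is a difference on the log2(FPKM + 1) scale, which understates changes of low genes. A DEG had an adjusted p under 0.05 and at least a 4-fold change. The fits of each series, and of the difference between series, were added after the data had been seen. The 10 members, the wider lists and the tests were chosen with earlier results of these data known. All members were described, and of the wider lists up to 10 called genes with the largest change in each direction were named. Floors of 3 reads cover counting error only. The fits were tested on simulated data. Planned count tests (negative binomial) on recovered reads were not run, and a limma-voom fit of the four-cell reads took their place. Tables were normalized separately and were not tested against each other. Libraries from oryx donor cells were not used here. Python 3.11.15, pandas 2.3.3 and matplotlib 3.10.9 were used.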

Additional observations from a re-analysis of the deposited data

Results flagged for a closer look

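In the group of 6 two-cell libraries without α-amanitin, Hspa9 in NT3 stood apart, at 27.3 FPKM with the next library at 38.1 FPKM, a gap of 0.637 of the group's range on the log2 scale. In the group of 6 with α-amanitin, Am1 was the only library with any Hspa1a (0.125 FPKM) or Hspa1b (0.170 FPKM), so its gap was 1 times the range for both genes. For both genes that gap was fixed once the other 5 libraries were at 0. No chance rate of such gaps was computed, and many groups were examined.

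For 7 members the change without minus with α-amanitin differed between the two-cell series in limma's test of the difference after spike-in scaling, each with the larger change in the R series, as for 8683 of the 9150 genes called among the 17196 tested (53.2%). As NT series minus R series on the log2 scale, the difference was -1.74 for Hspa8 (adjusted p = 0.0253), -3.55 for Hspa5, -3.27 for Hspa9, -2.39 for Hsp90aa1 (adjusted p = 0.000679), -2.70 for Hsp90ab1, -1.43 for Hspd1 (adjusted p = 0.0342) and -4.13 for Hspb1. As deposited, Hspa8 (-0.63, adjusted p = 0.22) and Hspd1 (-0.28, adjusted p = 0.517) did not pass. Spike-ins took 8.77 to 11.3% of reads in the R series libraries with α-amanitin and 6.54 to 8.93% in those of the NT series, and whether this has a part in the differences was not tested.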

How the results depend on the processing

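The count of DEGs at the four-cell stage was 649, and 264 with no filter on low values, 423 with a filter of 5 FPKM and 60 to 889 when 1 library was left out (60 without S7, 88 without S15 and 127 without S17). Hsp90aa1 stayed called in all 6 of these fits (change 1.71 to 2.26, adjusted p from 0.0124 to 0.034), so 1 member was called in each. In the two-cell comparison 5913 genes were DEGs, and 10265 with a pseudocount of 0.1, 2178 as deposited, 1647 with the median of ratios, 1410 in the NT series alone, 9132 in the R series alone, and 4966 to 6754 when 1 library was left out. Of the 9 members called there, 4 were called as deposited, 3 with the median of ratios and 4 in the NT series alone, and 8 to 9 when 1 library was left out. That comparison had no term for series, and with series as a term all 9 stayed called. The cause of these shifts, beyond the scaling itself, was not tested.

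Direction changed as follows, in no case past the threshold in the comparisons over all libraries, while in the R series alone Hspe1 went from 1.88 to -1.23 with the median of ratios (adjusted p = 0.00955) and was -0.049 as deposited (adjusted p = 0.895), and Hspd1 went from 2.52 to -0.55 with the median of ratios (adjusted p = 0.0843). In the NT series alone 5 members turned with the median of ratios, none of them called lower: Hsp90aa1 from 1.11 (adjusted p = 0.0321) to -0.026, Hspa5 from 0.84 to -0.29, Hspa9 from 0.92 to -0.20, Hspe1 from 0.82 to -0.31 and Hspb1 from 0.046 to -1.08. As deposited, Hspe1 (-0.0031, adjusted p = 0.995) and Hspb1 (-0.78, adjusted p = 0.467) turned there. With the median of ratios, Hspe1 was -0.13 at the four-cell stage, and Hspd1 was -0.32, Hspe1 -0.84 and Hspb1 -0.045 at the two-cell stage, where Hspe1 was -0.026 as deposited. In the replication comparison 7 members turned from lower to higher in DR, as deposited and with the median of ratios respectively: Hspa8 0.15 and 0.091, Hspa5 0.23 and 0.18, Hspa9 0.25 and 0.20, Hsp90ab1 0.59 and 0.54, Hspd1 0.38 and 0.32, Hspe1 0.23 and 0.18, and Hspb1 0.16 and 0.11. When 1 library was left out, Hspe1 ran from -0.13 to 0.48 at the four-cell stage, and in the replication comparison Hsp90ab1 from -2.78 to 0.29 and Hspd1 from -2.78 to 0.10, both turning without D1.

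Same-numbered two-cell libraries correlated at -0.004 to 0.078 in their deviations, and 5 of 6 libraries correlated best with their own number. The main fit did not use the numbers as pairs, and whether they mark pairs was not settled. With series and number as a replicate block, 5904 genes were DEGs and 8 members were called, Hspe1 falling out (1.35, adjusted p = 0.0566). For the other comparisons, no paired analysis was possible because the four-cell columns carry no shared replicate numbers and D and DR share 1 number. With no filter, Hspb1 was not called (2.08, adjusted p = 0.093).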

Other observations

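Within the two-cell NT series, the wider chaperone genes with the largest scaled changes were Bag3, Hspa2, Herpud1 and Xbp1. Bag3, a co-chaperone induced by heat shock factor, was at 5.71 ± 2.54 FPKM without and 0.149 ± 0.0596 FPKM with α-amanitin (SD, n = 3 each; change 2.88, limma, adjusted p = 0.00199). Xbp1 was at 4.70 ± 2.90 and 0.221 ± 0.235 FPKM (2.53, adjusted p = 0.0064), and Herpud1, an endoplasmic reticulum stress gene that acts in protein degradation, at 6.90 ± 4.29 and 0.890 ± 0.793 FPKM (2.56, adjusted p = 0.00914). Hspa2, an Hsp70 best known from spermatogenesis, was at 5.29 ± 3.37 and 0.279 ± 0.259 FPKM (2.62, adjusted p = 0.00411). All 4 also passed as deposited (adjusted p from 0.00625 to 0.0304) and with the median of ratios (adjusted p from 0.0085 to 0.0405). Bag3, Hspa2 and Xbp1 passed the filter of 1 FPKM only through libraries without α-amanitin, and all 4 were named for their large changes. Their p-values are therefore not independent of how they were picked.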
